A study of Homo sapiens with 8 samples.

Results

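The α-arrestin genes ARRDC1, ARRDC2, ARRDC3, ARRDC4 and TXNIP were followed through an Ago2 immunoprecipitation (Ago2-IP) experiment in the Burkitt lymphoma cell line ST486. They are 5 of the 16557 genes that the array probes could be matched to by RefSeq accession. The set was chosen around ARRDC2, which had been picked for its ratios on these same arrays, and the other 4 genes were added by family. The ratios of ARRDC2 are therefore a description and carry no test. The 5 genes had 8 probes, of which 6 probes of 4 genes passed the filter described below.

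ST486 cells had been transduced with a retroviral MXW-PGK-IRES-GFP vector that was either empty (EV-ST486) or drove ectopic miR-155 (miR-155-ST486). The study sorted GFP-positive cells to check miR-155 levels. Its methods do not say whether the cells used for Ago2-IP were sorted. From the cells of each vector, RNA was taken from the lysate (total, T) and from material precipitated with an antibody against Ago2 (IP), so that all 4 RNA samples came from cultures transduced with a GFP vector. Each RNA sample was labelled once with Cy3 and once with Cy5 and hybridised on 4 two-colour Agilent arrays, which gave 8 channels, with IP and T of a vector paired on each array and the dyes swapped between arrays. There was 1 RNA sample per condition, so the labellings are technical repeats and no test between conditions was possible. The 2 vectors lay on different slides, and 0 of the 2 slides held both, so slide and vector cannot be told apart. The study asked which transcripts enter the miRNA-loaded Ago2 complex when miR-155 is present.

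α-Arrestins are adaptor proteins with an arrestin fold. Most carry PPxY motifs that bind the WW domains of NEDD4 family ubiquitin ligases, and in this way they help to mark membrane proteins for endocytosis and lysosomal sorting. TXNIP also binds thioredoxin, and TXNIP and ARRDC4 are known as glucose-responsive targets of the transcription factor MondoA. Ago2 holds a miRNA and pairs with target transcripts mainly through the miRNA seed, so transcripts under miRNA control are found more in Ago2-IP RNA than in total RNA.

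The mature miR-155 sequence is shown because its seed defines the sites that such an experiment addresses. It is taken from RefSeq (GRCh38.p14, chr21:25573983-25574006, + strand), with bases 2 to 8, the seed, in capitals.
hsa-miR-155-5p: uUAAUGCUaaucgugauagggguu
A transcript site complementary to bases 2 to 7 reads GCATTA in DNA letters. Transcript sequences of the 5 genes were not analysed here.

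Probe signals were put on a common scale by quantile normalization over the 8 channels, and a probe was kept when it was well above background (detected) in at least 4 of 8 channels and its labellings lay within 2-fold in every RNA sample. This left 15529 of 41000 probes, which stood for 8315 named genes. Detected probes ranged from 14094 to 22161 per channel. The host transcript of miR-155, MIR155HG, was detected in 0 of 2 labellings of EV-ST486 total RNA and in 2 of 2 of miR-155-ST486 total RNA. Its normalized signals were 11.4 (Cy3) and 19.2 (Cy5) in the former and 121 and 107 in the latter. The EV-ST486 signals were not well above background, so no ratio is given. The position of that probe relative to the cloned insert is not given in the sources used here. Of the B-cell marker probes, those for MS4A1, CD79A, CD79B and MME were detected in all 8 channels, CD22 in 7 and the PAX5 probe in 0. The T-cell genes CD3D, CD3E and CD3G and the myeloid genes LYZ, CSF1R and ITGAM were detected in 0 channels, but the T-cell gene CD247 was detected in 4 and the myeloid gene CD14 in 5. In the epithelial list 1 probe, for KRT8, was detected in all 8. A KRT18 probe was detected in 4 and the CDH1 probe in 1. The list had 4 probes detected in 0 channels, among them the other KRT8 probe. The arrays measured RNA pooled over many cells, so fewer cells with a transcript and less transcript per cell cannot be told apart.

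**Figure D1:**
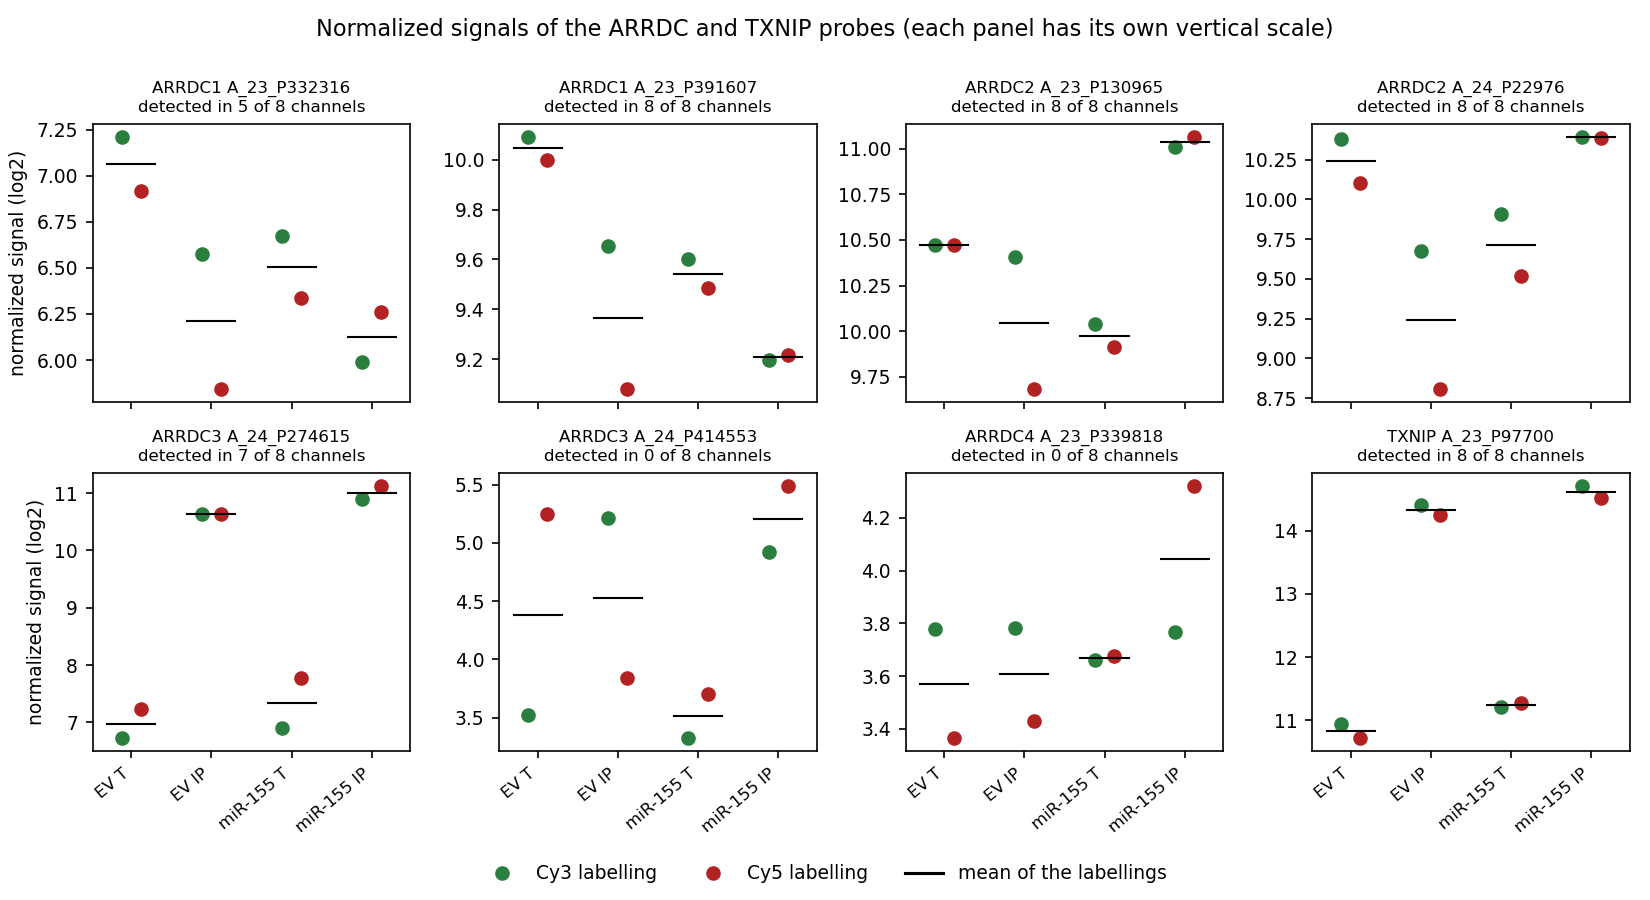
Normalized signal (log2, vertical axis) of each of the 8 member probes in total (T) and Ago2-IP RNA of EV-ST486 and miR-155-ST486 (horizontal axis); points are the Cy3 and Cy5 labellings, bars their mean, and each panel has its own scale. Both ARRDC2 probes are highest in miR-155 IP, both ARRDC1 probes are highest in EV T, and the ARRDC3 probe A_24_P274615 and the TXNIP probe stand far higher in IP than in T with either vector.

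ARRDC2 was below total RNA in the Ago2-IP of EV-ST486 and above it in the Ago2-IP of miR-155-ST486, on both of its probes. Compared with EV-ST486, its mean signal in miR-155-ST486 was higher in IP and lower in T. Each dye orientation gave this pattern of IP/T ratios below 1 with the empty vector and above 1 with miR-155, which 1.58% of all kept probes shared. ARRDC2 is a PPxY-bearing α-arrestin that is less studied than its relatives. Probe A_23_P130965 had normalized signals of 1423 (Cy3) and 1418 (Cy5) in EV T, 1357 and 822 in EV IP, 1053 and 964 in miR-155 T, and 2062 and 2141 in miR-155 IP. Both miR-155 IP labellings lay above the other 6 channels. In EV-ST486 the IP/T ratio was 0.74, with 0.957 where IP RNA was in Cy3 and 0.578 where it was in Cy5, and with miR-155 it was 2.09, with 2.14 and 2.03 by orientation. The median IP/T ratio of all kept probes in EV-ST486 was itself below 1, at 0.90. With IP RNA in Cy3 the log2 value of A_23_P130965 in EV-ST486, -0.06, was above the median of -0.14.

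The other ARRDC2 probe, A_24_P22976, gave 1332 and 1098 in EV T, 817 and 448 in EV IP, 963 and 733 in miR-155 T, and 1345 and 1337 in miR-155 IP. Here the miR-155 IP channels were just above the higher EV T labelling, and the EV IP labelling in Cy5 was the lowest of the 8. The IP/T ratio was 0.500 (0.744 and 0.336 by orientation) with the empty vector and 1.60 (1.84 and 1.39) with miR-155, so this ARRDC2 probe stayed under the 2-fold mark that A_23_P130965 passed by a small margin. With a different background correction (normexp, then quantile normalization), the IP/T ratio of A_23_P130965 in miR-155-ST486 was 1.80 and was also under 2.

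The ratio of the IP/T ratios, miR-155 over EV, was 2.80 for ARRDC2 probe A_23_P130965 (2.24 and 3.52 by orientation) and 3.19 for A_24_P22976 (2.47 and 4.13). Of 15529 kept probes these ranked 37 and 15 from the top. The probes of ARRDC2 differed from each other by 0.19 on the log2 scale, against a median of 0.23 for the 1734 genes with 2 kept probes. In 90% of kept probes the dye orientations lay within 0.83 on the log2 scale for this ratio, and 5% to 95% of the probes ranged from -0.55 to 0.55. The labellings of ARRDC2 lay farthest apart in EV IP, and the orientation with IP RNA in Cy5 gave the larger ratio on both probes.

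**Figure D2:**
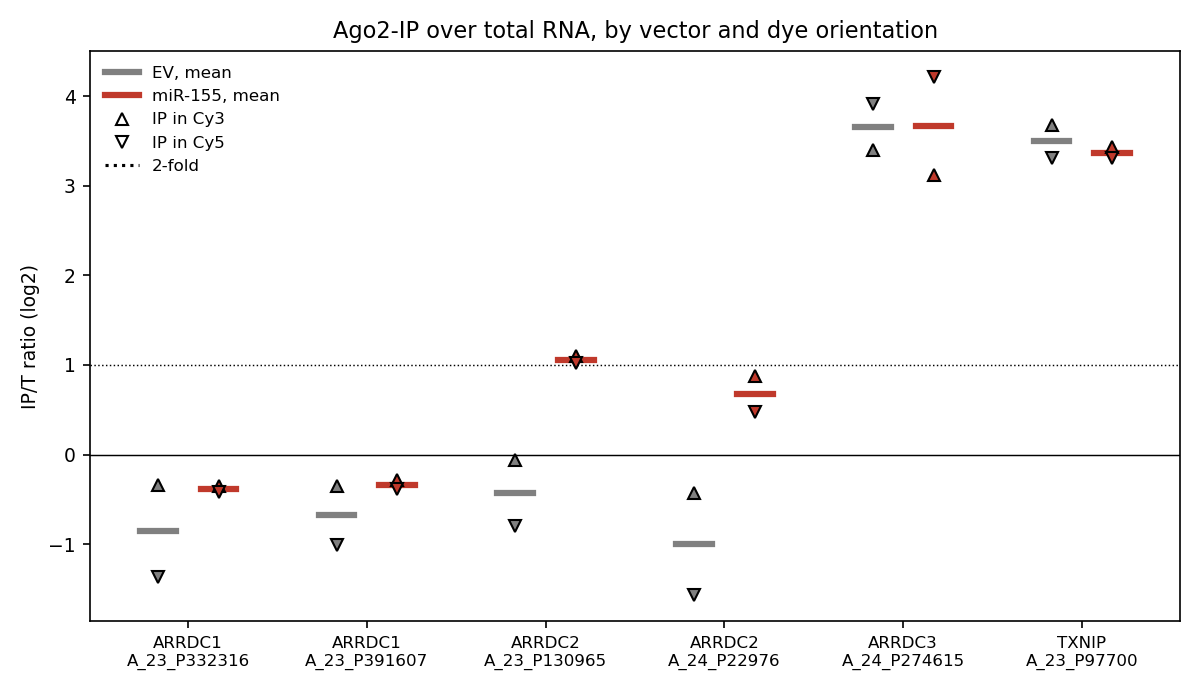
IP/T ratio (log2, vertical axis) of the 6 kept probes (horizontal axis) in EV-ST486 (grey) and miR-155-ST486 (red); bars are means of the labellings, triangles the dye orientations, and the dotted line is 2-fold. Both ARRDC2 probes lie below 0 in EV and above 0 in miR-155 in each orientation, ARRDC1 lies below 0 in both vectors, and ARRDC3 and TXNIP lie above 3 in both.

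ARRDC1, which recruits the ESCRT protein TSG101 to the plasma membrane in vesicle budding, stayed below total RNA in Ago2-IP with either vector. Probe A_23_P391607 gave 1091 (Cy3) and 1024 (Cy5) in EV T, 806 and 541 in EV IP, 777 and 716 in miR-155 T, and 587 and 595 in miR-155 IP. The EV T labellings of ARRDC1 were the highest of the 8. Its IP/T ratio was 0.625 (0.787 and 0.496) with the empty vector and 0.792 (0.820 and 0.766) with miR-155, and the miR-155/EV ratio was 1.27 (1.04 and 1.54). The dimmer ARRDC1 probe, A_23_P332316, was detected in 5 of 8 channels, with signals from 57.4 to 148, and gave IP/T ratios of 0.553 and 0.768 and a miR-155/EV ratio of 1.39, which was 0.995 in the orientation with IP RNA in Cy3.

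Set against its relatives, ARRDC2 lay close to ARRDC1 with the empty vector and above it with miR-155. Averaged over the probes of each gene, ARRDC2 exceeded ARRDC1 in log2 IP/T by 0.053 with the empty vector and by 1.23 with miR-155. The log2 miR-155/EV ratio of ARRDC2 exceeded that of ARRDC1 by 1.17, with 1.21 and 1.14 in the 2 orientations, a much smaller gap between orientations than either gene showed alone. ARRDC2 exceeded ARRDC3 in this log2 ratio by 1.57 (1.51 and 1.62), a difference that was 0.63 after normexp and quantile normalization, and it exceeded TXNIP by 1.71 (1.49 and 1.94). Because ARRDC2 had been picked for this ratio, these differences are descriptions.

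ARRDC3 and TXNIP were among the transcripts with the highest IP/T ratios, and this held with the empty vector as with miR-155. ARRDC3 links NEDD4 family ligases to the β2-adrenergic receptor and to integrin β4. Its probe A_24_P274615 gave 106 (Cy3) and 151 (Cy5) in EV T, 1592 and 1590.2 in EV IP, 120.2 and 219 in miR-155 T, and 1906 and 2236 in miR-155 IP. Every IP labelling of ARRDC3 was above every T labelling, and the IP/T ratio was 12.6 (10.6 and 15.0) with the empty vector and 12.7 (8.71 and 18.6) with miR-155. The ARRDC3 miR-155/EV ratio was 1.01 (0.823 and 1.24), and 1.61 after normexp and quantile normalization. Total RNA was close to background here, since the ARRDC3 probe was detected in only 1 of 2 labellings of EV T, and the height of its IP/T ratio depended on the background correction, with 2.93 and 4.73 in place of these after normexp and quantile normalization.

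TXNIP, the thioredoxin-interacting protein that also promotes internalisation of the glucose transporter GLUT1, was detected in all 8 channels. Its probe A_23_P97700 gave 1957 (Cy3) and 1682 (Cy5) in EV T, 21590.4 and 19418 in EV IP, 2381 and 2484 in miR-155 T, and 26719 and 23518 in miR-155 IP. The IP signals of TXNIP were far from background and far above the T signals in both vectors. The IP/T ratio was 11.3 (12.8 and 9.92) with the empty vector, rank 135 of the kept probes, and 10.3 (10.8 and 9.88) with miR-155, rank 133. The TXNIP miR-155/EV ratio was 0.913 (0.838 and 0.995), slightly under 1 in both orientations.

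ARRDC4, the other glucose-responsive member, and ARRDC3 probe A_24_P414553 were detected in 0 of 8 channels. The normalized signals of ARRDC4 probe A_23_P339818 lay between 10.3 and 20.0, and those of the ARRDC3 probe reached at most 44.9. Both were not well above background in any RNA sample, so no ratio is given for them.

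**Figure D3:**
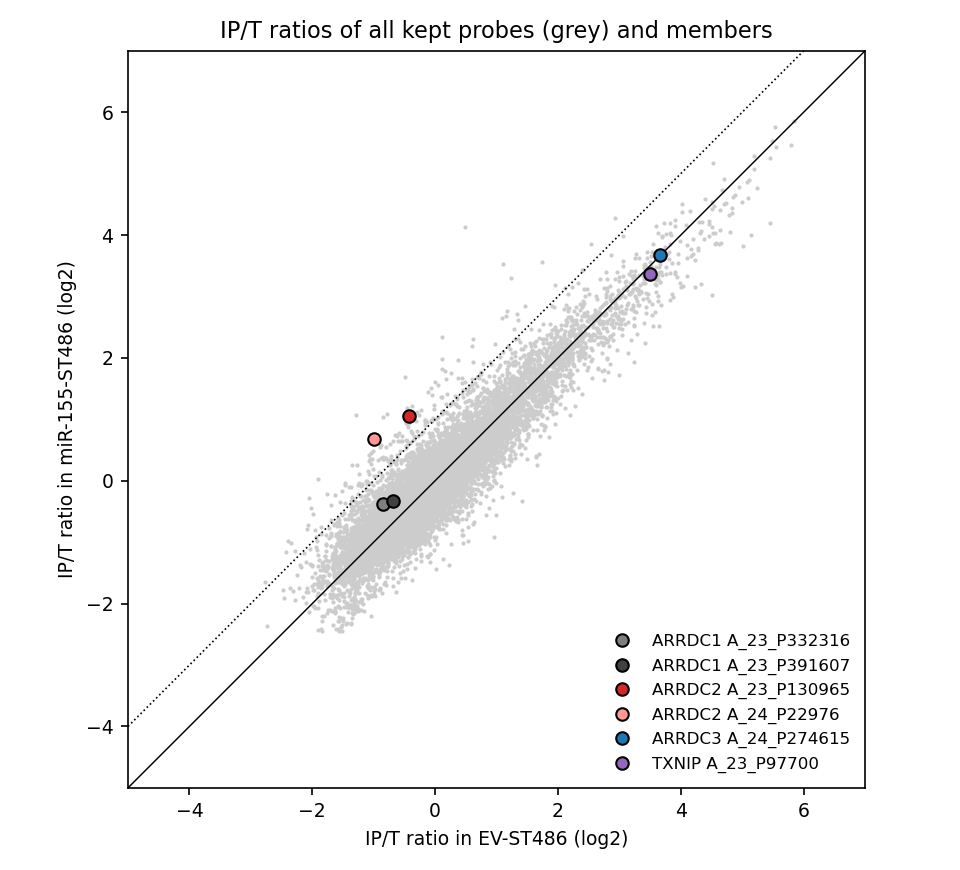
IP/T ratio in miR-155-ST486 (log2, vertical axis) against IP/T ratio in EV-ST486 (log2, horizontal axis) of all 15529 kept probes (grey) with the 6 member probes in colour; the solid line marks equal ratios and the dotted line a miR-155/EV ratio of 2. Both ARRDC2 probes lie above the dotted line, and ARRDC3 and TXNIP lie near the solid line at its upper end.

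IP RNA exceeded T RNA 2-fold or more for 2 of the 6 kept member probes in EV-ST486 (ARRDC3 and TXNIP), against 12.1% of all kept probes. In miR-155-ST486 it did so for 3 of 6 (these and ARRDC2 probe A_23_P130965), against 12.2%. ARRDC3 and TXNIP did so with both vectors, as did 10.2% of the kept probes. IP was 2-fold or more below T for 0 of 6 members with either vector, where 10% of the kept probes were so with the empty vector and 9.83% with miR-155. ARRDC2 probe A_24_P22976 lay at that limit in EV-ST486, and with IP RNA in Cy5 alone 3 of 6 were below it (0.336 for A_24_P22976, 0.387 and 0.496 for the ARRDC1 probes). No share of all kept probes is given for that orientation. The miR-155/EV ratio reached 2 for 2 of 6, both of ARRDC2, against 1.15% of all kept probes. ARRDC2 probe A_23_P130965 alone met both thresholds, as 0.438% of the kept probes did. The IP/T ratios of ARRDC3 and TXNIP reached 8 in both vectors, as did those of 1.22%. After normexp and quantile normalization neither gene reached 8 in both, since ARRDC3 was as given above and TXNIP was at 7.995 with miR-155. Since ARRDC2 was picked on these ratios, nothing is read from its counts.

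In total RNA, 0 of the 6 member probes differed 2-fold between the vectors in either direction, where 0.676% of all kept probes were at least 2-fold higher and 0.38% at least 2-fold lower in miR-155-ST486. All 4 probes of ARRDC1 and ARRDC2 were lower in both orientations. The share of all kept probes that were so is not given, so nothing is read from this count. In this comparison 5% to 95% of the kept probes ranged from -0.55 to 0.60 on the log2 scale. The log2 difference was -0.50 for ARRDC2 probe A_23_P130965 and -0.53 for A_24_P22976, and -0.50 and -0.56 for the ARRDC1 probes A_23_P391607 and A_23_P332316. TXNIP was higher by 0.42 and ARRDC3 by 0.36. These sizes depended on the processing. Under both normexp settings the dim ARRDC1 probe A_23_P332316 was at -0.12. Without quantile normalization the median of all kept probes was itself 0.44 higher in miR-155-ST486, the log2 differences were -0.02 and -0.06 for the ARRDC2 probes and -0.04 for ARRDC1 probe A_23_P391607, and relative to that shift they were -0.46, -0.50 and -0.48.

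In Ago2-IP RNA ARRDC2 lay apart from ARRDC1. ARRDC2 was higher in miR-155-ST486 by 0.99 on the log2 scale for A_23_P130965 (1.99-fold, with 1.52 and 2.60 by orientation) and by 1.15 for A_24_P22976 (2.22-fold, with 1.65 and 2.99). Of the members A_24_P22976 alone was 2-fold or more higher, as were 1.28% of all kept probes, and 0 of 6 were as far lower, where 1.05% were. The ARRDC1 probes were at -0.16 and -0.08, ARRDC3 at 0.38 and TXNIP at 0.29. Without quantile normalization the median of all kept probes was 0.44 higher in IP RNA too, and relative to it the ARRDC2 probes were at 1.04 and 1.18 and ARRDC1 probe A_23_P391607 at -0.14. The ARRDC2 minus ARRDC1 difference was 1.19 in IP RNA (1.18 and 1.20 by orientation) and 0.020 in total RNA, on the log2 scale. The ARRDC2 minus ARRDC3 difference was 0.69 in IP RNA (0.40 and 0.99) and -0.87 in total RNA. For TXNIP in place of ARRDC3 these were 0.78 (0.35 and 1.20) and -0.93. From ARRDC3 and TXNIP, ARRDC2 thus differed in both fractions.

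**Figure D4:**
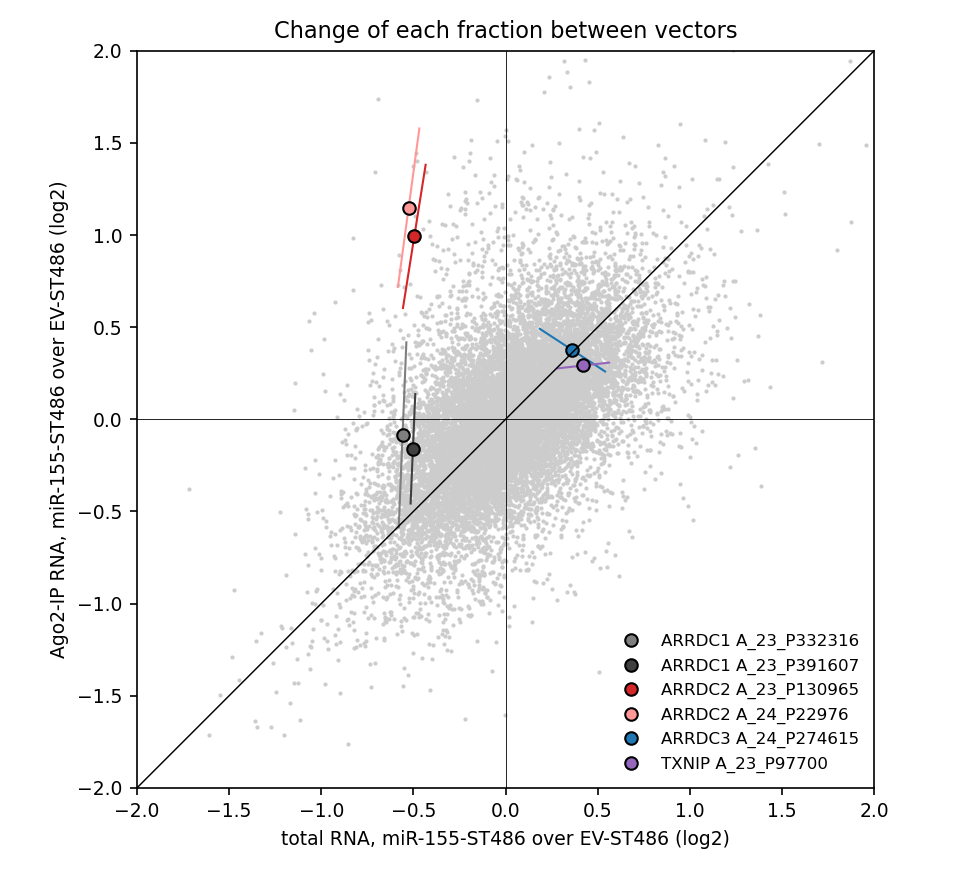
Difference between miR-155-ST486 and EV-ST486 (log2) in Ago2-IP RNA (vertical axis) against that in total RNA (horizontal axis) for the kept probes (grey; 8 lie outside the axes) and the 6 member probes, with lines joining the values of the 2 dye orientations. ARRDC1 and ARRDC2 share a total RNA difference near -0.5 and differ in IP RNA, where ARRDC2 is near 1 and ARRDC1 near 0.

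Genes whose signals over the 8 channels were most like those of ARRDC2 were found by the Euclidean distance of centred log2 signals among 8314 other genes, for which the median distance was 1.69. Among the nearest were TATDN3 (0.46), METTL21A (0.52), HHIP (0.64) and PAK2 (0.67). Their miR-155/EV ratios were 2.19, 2.52, 2.23 and 1.98. The same 8 channels gave both the distance and the ratio, so similar ratios follow from the choice and carry no test. HHIP was detected in only 4 channels. With IP RNA in Cy3 its IP/T ratio in EV-ST486 was 1.16 and its miR-155/EV ratio 1.64. In this order of likeness ARRDC1 ranked 2374, TXNIP 8221 (distance 4.93) and ARRDC3 8253 (distance 5.31).

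Other genes that share the fold, the partners or the regulation of the α-arrestins were described from 5 lists of 38 genes. Of their 66 probes 38 were kept, and 0 of these had a miR-155/EV ratio past 2-fold in either direction, with a range of 0.677 to 1.33, where 1.15% of all kept probes were past it upwards and 0.477% downwards. IP exceeded T 2-fold or more for 9 of the 38 with the empty vector and 8 with miR-155, against 12.1% and 12.2% of all kept probes. After normexp and quantile normalization, tried for the lists after their values were seen, 31 of these probes were kept, and 4 and 5 of them were 2-fold or more higher in IP. No share of all probes is given under that processing, so nothing is read from these later counts. Over all kept probes the median IP/T ratio was 0.90 with the empty vector and 0.88 with miR-155, and values below are given in that order.

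Among relatives with an arrestin fold, 6 of 12 probes were kept, with median IP/T ratios of 0.63 and 0.50. The retromer subunit VPS26A alone was above 2, with 2.20 and 2.87. In EV-ST486 it was 1.41 with IP RNA in Cy3 and 3.45 with IP RNA in Cy5. The β-arrestin ARRB2 had 0.60 and 0.49, VPS26B had 0.50 and 0.52, and of the 3 VPS26C probes a pair had 0.62 and 0.64 with the empty vector and 0.48 and 0.47 with miR-155. These VPS26C probes were dim, detected in 5 and 6 of 8 channels, and after normexp and quantile normalization had 0.74 and 0.80 with miR-155, and the bright VPS26C probe, detected in all 8, had 1.01 and 0.94. ARRB1, SAG, ARR3 and ARRDC5 were detected in 0 channels.

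The NEDD4 family ligases, which bind α-arrestin PPxY motifs, had 7 of 16 probes kept and medians of 1.46 and 1.34. Their kept probes for SMURF1 (7.64 and 7.36), SMURF2 (4.09 and 5.08) and WWP1 (3.44 and 3.82) were above 2 with both vectors, and WWP2 was lowest in miR-155-ST486, at 0.93. Another SMURF1 probe, A_23_P398254, detected in 5 channels, did not go with the kept one and had 0.641 and 1.503. It was left out because its labellings lay more than 2-fold apart. The kept SMURF1 and SMURF2 probes were detected in 1 of 2 labellings of EV T. After normexp and quantile normalization the kept SMURF1 probe had 1.62 and 1.69, SMURF2 1.61 and 1.62, and WWP1 2.03 and 2.24. Of the ESCRT and vesicle budding genes, 10 of 12 probes were kept, with medians of 1.21 and 1.16. The ESCRT-0 subunits HGS and STAM were above 2, HGS on 2 of its 3 probes (3.09 and 3.22 on the first, 2.50 and 2.29 on the other) and STAM with 2.30 and 2.58 (1.13 and 1.32 after normexp and quantile normalization, with 1 of 2 labellings detected in EV T and in EV IP), and the ARRDC1 partner TSG101 was lowest in miR-155-ST486, at 0.88.

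Genes of the thioredoxin system, to which TXNIP binds, had 9 of 11 probes kept and medians of 0.74 and 0.75. None of the 9 was above 2, the highest in miR-155-ST486 being PRDX4 at 1.15, and thioredoxin reductase TXNRD1 was the lowest, at 0.44 and 0.58 (0.86 and 0.85 after normexp and quantile normalization). Of the MondoA and glucose transport genes, 6 of 15 probes were kept, with medians of 1.07 and 1.02. The kept probe for MLXIP, which encodes MondoA, had IP/T ratios of 4.16 and 4.75. Other MLXIP probes did not go with it. A_23_P33027, detected in 5 channels, had 0.59 and 0.86, and A_24_P415624, detected in 6, had 0.62 and 1.14. Both were left out because their labellings lay more than 2-fold apart, and A_24_P415618 was detected in 0 channels. The glucose transporter gene SLC2A1 had 2.09 and 1.63. A probe for MLX, the partner of MondoA, was lowest in miR-155-ST486, at 0.74, and the other kept MLX probes had 0.83 and 0.97 there.

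**Figure D5:**
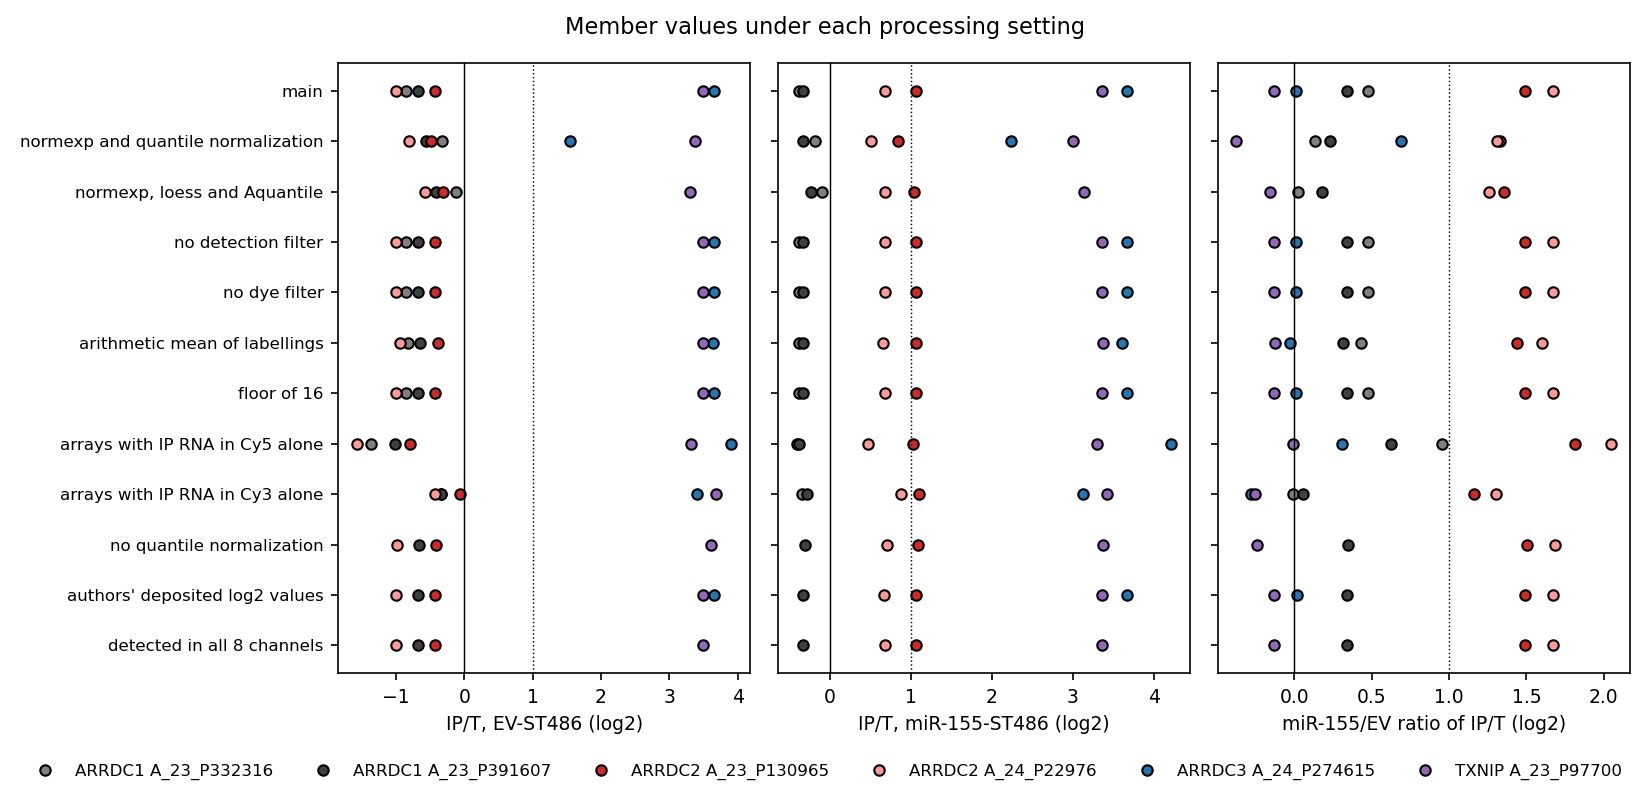
Log2 IP/T ratio in EV-ST486, log2 IP/T ratio in miR-155-ST486 and log2 miR-155/EV ratio (horizontal axes, left to right) of the member probes under each processing setting (vertical axis), with dotted lines at 2-fold; a missing point means that the probe was not kept. Both ARRDC2 probes stay to the right of the dotted line in the miR-155/EV panel under every setting plotted, and after normexp and quantile normalization the ARRDC3 probe moves left in the IP/T panels and right in the miR-155/EV panel.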

How the data were processed

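The 5 member genes and the gene lists were chosen with earlier results of these data known. Per the labels and the study's methods, the authors scanned 2-colour Agilent arrays and read them with Agilent Feature Extraction 10.5.1.1. The deposited processed signals are intensities, background-subtracted and dye-normalized by that program, and the detection flags are its calls of signal over background. The deposited log2 values are the authors' quantile-normalized values for 14453 probes, used as an alternative, and 99.9% of them lay within 0.05 of the values computed here. Control spots were left out, spots of a probe were averaged, and signals below 1 were set to 1 before log2. Labellings of an RNA sample were averaged on the log2 scale. Probes were named by RefSeq accession (23958 of 41000). List genes were named where a kept probe passed 2-fold, or was highest or lowest. Some genes that these rules or the marker list would name are not reported here. With 1 RNA sample per condition no test was run, and the number of arrays limits the precision. Python 3.11.15 with numpy 2.4.6 and pandas 2.3.3, and limma 3.58.1 in R 4.3.3, were used. The ratio code was tested on simulated data.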

Additional observations from a re-analysis of the deposited data

Results flagged for a closer look

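Both ARRDC2 probes had an IP/T ratio below 1 in EV-ST486 and above 1 in miR-155-ST486 in each dye orientation, so that the labellings of the vectors moved in opposite directions. The log2 miR-155/EV ratio was 1.49 for A_23_P130965 and 1.67 for A_24_P22976, and the difference was not tested. Of all kept probes, 1.58% showed this pattern.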

How the results depend on the processing

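With 1 RNA sample per condition, directions and sizes only could be compared across 11 alternative settings. The miR-155/EV ratio of ARRDC2 was at least 2 in all 11, from 2.24 to 3.52 for A_23_P130965 and from 2.39 to 4.13 for A_24_P22976, the upper values with IP RNA in Cy5 alone. The miR-155/EV ratios of ARRDC3 and of ARRDC1 probe A_23_P332316 lay on both sides of 1, at 0.823 and 0.995 with IP RNA in Cy3 alone. The filters and the floor of 16 leave a kept member probe at the same value, so agreement there says nothing about stability. The number of member probes with IP/T of at least 2 in EV-ST486, 2 as reported, was 1 without quantile normalization, with normexp, loess and Aquantile, and with detection in all 8 channels, since ARRDC3 was then not kept. At a threshold of 3 the number with a miR-155/EV ratio past it was 1. With 1 dye orientation at a time the counts were 2 to 2 in EV-ST486, 3 to 3 in miR-155-ST486 and 2 to 2 for the miR-155/EV ratio. The count of 3 in miR-155-ST486 was 2 without quantile normalization, under both normexp settings, with detection in all 8 channels and at a threshold of 3, and 4 at 1.5. Shares over all kept probes are given for the main processing only, so member counts under other settings or thresholds have no share beside them. For normexp, 33 spot backgrounds above 500 were replaced by the channel median. The cause of these shifts was not tested. Signals near background limit ARRDC3 in total RNA, ARRDC1 probe A_23_P332316, and SMURF1, SMURF2, STAM, TXNRD1 and the dim VPS26C probes. No paired analysis was possible because each condition had 1 RNA sample and its numbers name the dye.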

Other observations

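The EV-ST486 Ago2-IP sample gave a wide gap between its labellings for ARRDC1 and ARRDC2. Its Cy3 labelling exceeded its Cy5 labelling by 0.72 and 0.87 on the log2 scale for ARRDC2 probes A_23_P130965 and A_24_P22976 and by 0.57 and 0.73 for ARRDC1 probes A_23_P391607 and A_23_P332316. A gap at least as large was present in 5.20%, 2.01%, 9.79% and 4.87% of all kept probes. For TXNIP the gap was 0.15 and for ARRDC3 it was 0.00.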
